A study of Mus musculus with 4 samples.

Results

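Rises lost without Snf2h are stretches of the mouse genome where the replication profile of wild-type embryonic stem cells climbed steeply and that of Snf2h knockout cells climbed less, stayed level or fell. They numbered 383 regions on the 19 autosomes, made of 808 windows among 94040 measured (0.859%). The profile came from TrAEL-seq, a method that ligates an adapter to free DNA 3′ ends and sequences from it, so that each read tells the strand of an end, many of them at replication forks. The deposited value, called polarity here, is a signed number between -50 and 50, in windows of 100 kb every 25 kb along GRCm38. Its unit is not stated, and from its range it is read here as strand imbalance in percentage points (points). Both genotypes, wild type (WT) and Snf2h knockout (Snf2h KO, labelled SNF2KO), were represented by 2 libraries each, all from stem cells of the line 129S6/SvEvTac grown in serum and LIF on gelatin. The design text describes duplicate cultures; how the knockout was made, and whether it is a single clone, is not given in the sources used here.

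Each library was divided by its own SD over the autosomal windows of full length, which was 14.6 and 12.8 points in WT replicates 1 and 2, and 19.4 and 14.5 points in KO replicates 1 and 2. The rise of a window is its polarity 200 kb downstream minus its own polarity, in SD of the library. A window was chosen when the smaller WT rise was at least 1 and exceeded the larger KO rise by at least 0.75, and chosen windows 25 kb apart were joined. A region runs from the midpoint of its first window to 200 kb past the midpoint of its last, and its values are those of the window with the largest loss, the smaller WT rise minus the larger KO rise. Genes named for a region overlap the region, and the starts of some lie outside the 200 kb of that window. The regions were thus chosen by the polarity values of all 4 libraries, which are therefore given as a description without a test, and the rule also takes in rises that were reduced rather than removed. Gene positions and promoter sequences were not used by the rule, and these too are given as counts without a test.

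In a replication profile of this kind, a zone where forks start in both directions appears as a steep change of strand imbalance, because forks leave it leftward on one side and rightward on the other. Zones where forks meet give the opposite change, usually spread over a longer distance. Snf2h is the motor subunit of the ISWI remodelling complexes, which space nucleosomes, and in embryonic stem cells it is known for its role in nucleosome order around CTCF sites. The strand counted as positive is not stated in the sources used here, so whether a rise is a zone of initiation or of termination is not given by the files.

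Promoters are the DNA sequence within these regions that was at hand, and 4 from the regions with the largest losses are printed, to set a promoter poor in the dinucleotide CpG beside CpG-rich ones; of the 24 listed starts in these regions, 6 were CpG-rich by the threshold given further on. Each is the RefSeq sequence from 250 bases before to 50 after a transcription start in GRCm38.p6, written 5′ to 3′ on the strand of the gene, with every CpG in capitals. Ing5 (chr1:93803715-93804014, plus strand) and Gal3st2 (chr1:93861094-93861393, plus strand) lie in the same lost rise, Slc39a10 (chr1:46853569-46853868, minus strand) in another on chromosome 1, and Camk2d (chr3:126596701-126597000, plus strand) in a lost rise on chromosome 3.
Ing5: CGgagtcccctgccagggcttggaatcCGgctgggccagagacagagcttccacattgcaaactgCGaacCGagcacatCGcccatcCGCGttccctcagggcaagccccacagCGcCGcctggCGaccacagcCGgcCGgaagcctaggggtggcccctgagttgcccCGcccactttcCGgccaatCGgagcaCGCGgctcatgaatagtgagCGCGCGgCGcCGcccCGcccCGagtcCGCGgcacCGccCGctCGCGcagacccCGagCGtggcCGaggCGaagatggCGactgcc
Gal3st2: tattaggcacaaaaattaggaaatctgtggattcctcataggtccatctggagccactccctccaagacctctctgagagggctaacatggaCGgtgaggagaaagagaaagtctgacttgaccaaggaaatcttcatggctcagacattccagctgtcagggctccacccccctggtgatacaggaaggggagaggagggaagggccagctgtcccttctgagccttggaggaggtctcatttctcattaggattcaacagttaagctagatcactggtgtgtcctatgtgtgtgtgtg
Slc39a10: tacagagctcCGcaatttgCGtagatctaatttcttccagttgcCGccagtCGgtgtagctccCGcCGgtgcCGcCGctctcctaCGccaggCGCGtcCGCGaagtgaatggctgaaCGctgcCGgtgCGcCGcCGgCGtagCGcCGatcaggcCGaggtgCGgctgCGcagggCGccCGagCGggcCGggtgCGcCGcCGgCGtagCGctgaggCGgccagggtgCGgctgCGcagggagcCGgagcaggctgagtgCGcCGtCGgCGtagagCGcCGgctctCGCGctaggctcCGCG
Camk2d: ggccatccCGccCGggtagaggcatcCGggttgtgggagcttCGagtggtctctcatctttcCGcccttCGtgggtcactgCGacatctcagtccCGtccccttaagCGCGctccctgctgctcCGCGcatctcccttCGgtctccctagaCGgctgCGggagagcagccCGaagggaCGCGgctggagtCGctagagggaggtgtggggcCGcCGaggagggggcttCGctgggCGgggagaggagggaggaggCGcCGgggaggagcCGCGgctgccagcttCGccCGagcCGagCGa
The Ing5, Slc39a10 and Camk2d promoters held 35, 47 and 31 CpG, with ratios of observed to expected CpG of 0.937, 1.203 and 0.846. The Gal3st2 promoter held 1 CpG, a ratio of 0.0530. A second annotated start of Slc39a10, also inside its lost rise, had 1 CpG.

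The regions were short and their rises were steep in WT. Their median length was 225 kb and the longest was 400 kb; 187 (48.8%) rested on a single window. The WT rise had a median of 1.75 SD in replicate 1 (lowest 1.00, highest 4.13) and 1.74 SD in replicate 2 (lowest 1.00, highest 4.05). In the knockout the medians were 0.465 SD (lowest -1.15, highest 2.72) in replicate 1 and 0.379 SD (lowest -2.32, highest 2.73) in replicate 2. The loss had a median of 0.993 SD and reached 3.10 SD. The replicates lay close together. The median absolute difference between replicates of the rise was 0.164 SD in WT and 0.241 SD in KO at the lost rises, against 0.317 and 0.382 SD over all measured windows. Small gaps between replicates are favoured by a rule that asks both WT values to lie above both KO values.

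**Figure D1:**
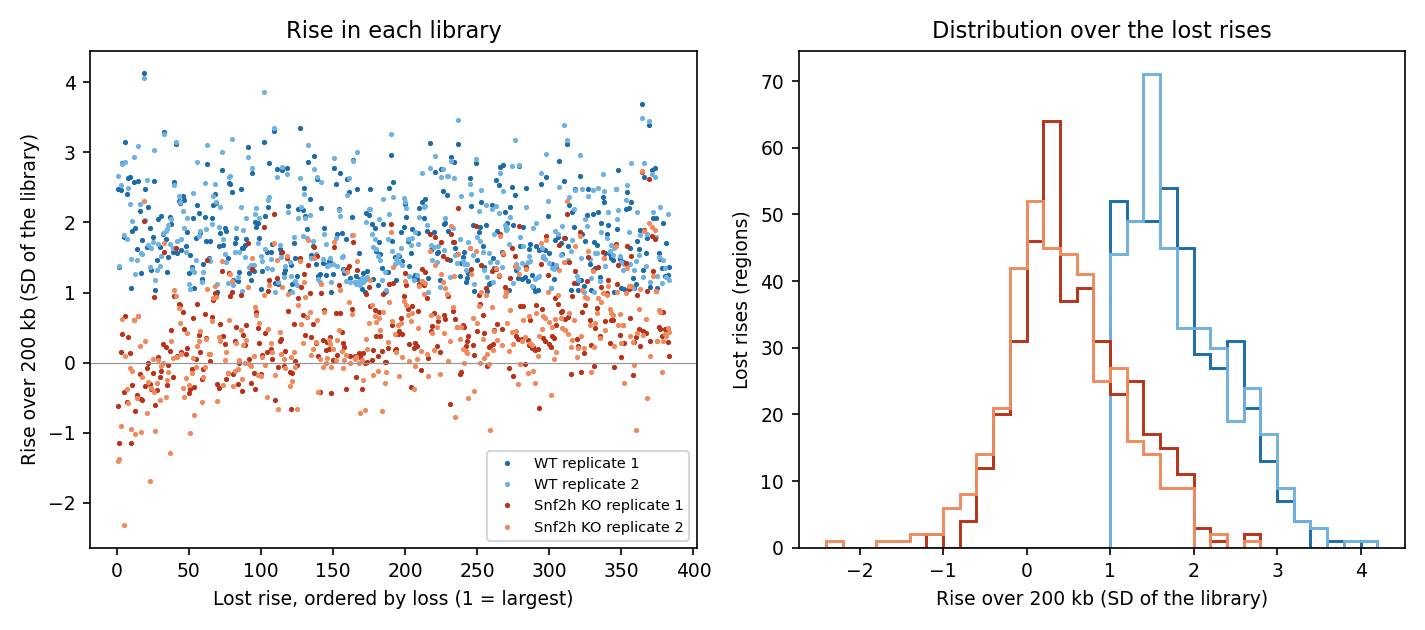
Rise over 200 kb, in SD of each library, at the 383 lost rises for the 2 WT (blue) and 2 Snf2h KO (red) libraries. The left panel has a point per region and library in order of loss, and the right panel counts regions in bins of 0.2 SD; the WT medians are 1.75 and 1.74 SD and the KO medians 0.465 and 0.379 SD.

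Choosing windows with the genotypes exchanged gave 539 windows (0.573%) in 276 regions, called gained rises. Windows that rose by at least 1 SD in all 4 libraries numbered 10423 (11.1%) in 2216 regions, called kept rises. Both WT rises lay above both KO rises in 20505 windows (21.8%), and the reverse held in 20534 (21.8%), so the direction alone was evenly split over the genome. Of the 14332 windows that rose in both WT libraries, the lost rises took 5.64%, and of the 13041 that rose in both KO libraries, the gained rises took 4.13%. The larger number of lost than of gained regions depended on the scale and on the KO libraries. On the deposited scale in points, with both thresholds multiplied by the mean SD of the libraries, there were 164 lost and 574 gained regions. Leaving out a library asks fewer values to meet the rule and so admits more regions: without KO replicate 1 there were 984 lost and 1290 gained, and without KO replicate 2, 592 lost and 601 gained. Without WT replicate 1 they were 1005 and 590, and without WT replicate 2, 782 and 464. The loss of the region nearest the threshold was 0.7504 SD, and 0.7485 SD in the nearest window left out; 192 windows lay within 0.1 SD inside this threshold and 246 within 0.1 SD outside it. The smaller WT rise was 1.0005 SD just inside its threshold and 0.9999 SD just outside.

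Averaged over the lost rises, the knockout profile kept the shape of the WT profile at a lower height. At 100 kb upstream of the centre the mean polarity was -0.911 and -0.923 SD in the WT replicates and -0.261 and -0.181 SD in the KO replicates. At 100 kb downstream it was 0.940 and 0.950 SD in WT and 0.314 and 0.249 SD in KO. Both flanks thus moved toward 0 by similar amounts. In 359 of the 383 regions (93.7%) the KO mean was above the WT mean at the upstream end and below it at the downstream end. The rule favours this pattern, since it asks WT to rise more than KO over the same span. The upstream end moved more than the downstream end in 191 (49.9%), and in 50.0% of gained and 49.1% of kept rises.

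The difference reached past the measured span. The mean of KO minus WT was 0.307 SD at 200 kb upstream, 0.171 SD at 300 kb, 0.105 SD at 400 kb and 0.0483 SD at 500 kb. On the downstream side it was -0.300, -0.213, -0.102 and -0.0580 SD at the same distances. Values near those at 500 kb also occurred farther out, with 0.0477 SD at 950 kb upstream and -0.0479 SD at 900 kb downstream. A reach as far as 500 kb is therefore not shown. Gained rises, chosen by the mirrored rule, had the mirrored course. Their mean of KO minus WT was -0.242, -0.122, -0.109 and -0.0551 SD upstream and 0.302, 0.143, 0.0596 and 0.0176 SD downstream. Kept rises, by comparison, had mean polarities from -1.06 to -1.04 SD at 100 kb upstream in all 4 libraries.

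**Figure D2:**
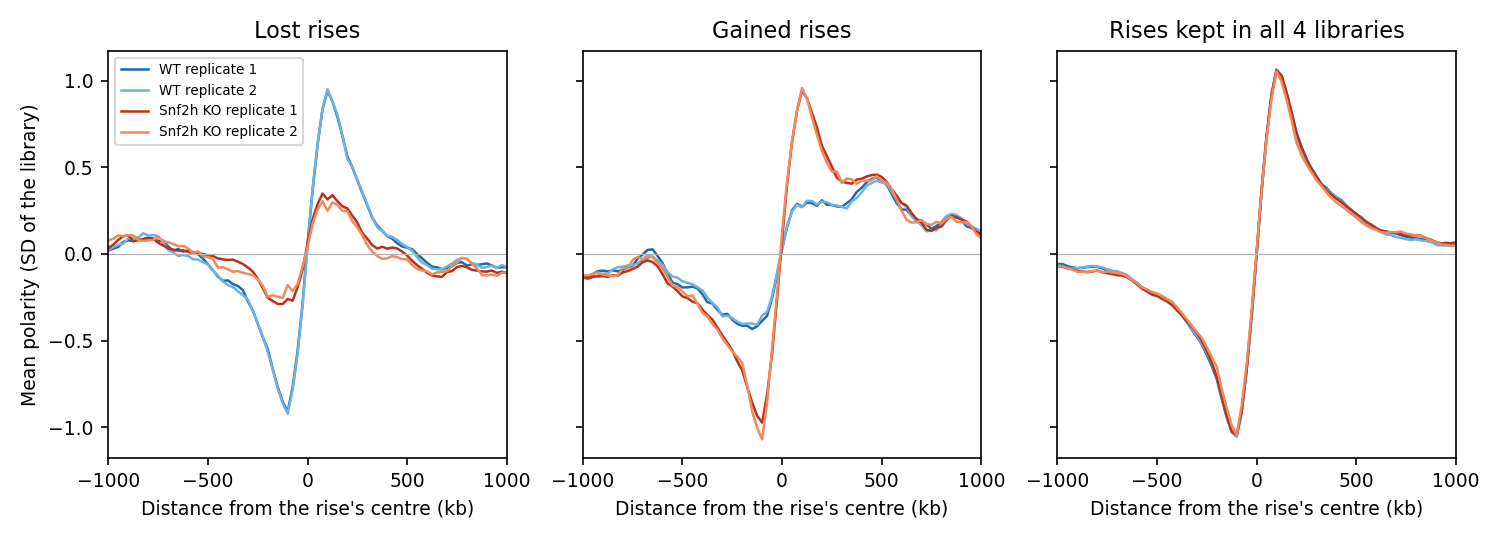
Mean polarity, in SD of each library, within 1000 kb of the centre of lost rises (383 regions), gained rises (276) and rises kept in all 4 libraries (2216); each line is a library, with WT in blue and Snf2h KO in red. At lost rises the KO lines keep a shallower slope, between -0.261 and 0.314 SD at 100 kb on either side, where the WT lines lie between -0.923 and 0.950 SD.

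The average covers several outcomes. By the mean KO rise, 171 lost rises (44.7%) still rose in the knockout by 0.5 SD or more, 201 (52.5%) were flat and 11 (2.87%) fell by 0.5 SD or more. Both KO libraries still rose by at least 1 SD in 69 regions (18.02%), which are therefore also kept rises of reduced height, and both KO rises were below 0 in 39. The median WT rise was 2.29 SD in those that still rose and 1.46 SD in those that were flat, an order that the rule favours because it asks WT to exceed KO by 0.75 SD.

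The sign of the polarity at the ends of the span was then compared, rises that were only reduced included. In WT, 314 regions (82.0%) passed from negative to positive in both replicates, that is, from a majority of ends on one strand to a majority on the other. In the knockout, both replicates still crossed in this way in 80 regions (20.9%). Kept rises crossed in 85.1% in WT and 81.3% in KO, and gained rises in 32.3% in WT and 81.9% in KO. In 106 regions (27.7%) polarity was positive at both ends in both KO replicates, and in 84 (21.9%) it was negative at both ends. Among the 314 regions that crossed in WT, 73 were positive and 51 negative at both ends in KO. A further 5 regions passed from positive to negative in both KO replicates, and in 108 the KO replicates differed in sign or had a value of 0 at an end.

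A rise that passed from crossing 0 to a single sign was seen at the fourth largest loss, chr1:93800001-94150000, with a loss of 2.21 SD. It spans Ing5, a subunit of histone acetyltransferase complexes, D2hgdh, a 2-hydroxyglutarate dehydrogenase, the sulfotransferase genes Gal3st2, Gal3st2b and Gal3st2c, and Pdcd1, the T cell receptor PD-1. The measured 200 kb begins at 93925001, downstream of the starts of Ing5 and Gal3st2. Polarity over it went from -12.5 to 29.1 points in WT replicate 1 and from -10.6 to 25.7 points in WT replicate 2. In KO replicates 1 and 2 it went from 29.2 to 37.1 and from 19.2 to 28.2 points. Positive values on the downstream side were thus of similar size in both genotypes, and at the upstream end of the span only the WT values were negative.

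Slc39a10, a zinc transporter gene, and Dnah7c, a dynein heavy chain gene, lay in a lost rise at chr1:46775001-47075000 (loss 2.13 SD). Polarity there rose from -17.8 to 20.7 and from -10.9 to 21.1 points in the WT replicates, and was 12.7 and 19.7 points at the ends in KO replicate 1 and 18 and 9.62 points in KO replicate 2. The KO profiles crossed 0 upstream of the span instead, from -1.42 and -1.31 SD at 325 kb before the centre to 0.833 and 1.05 SD at 225 kb before it, where WT stood at -0.327 and -0.717 SD. At chr15:91700001-92050000 (loss 2.14 SD), with the kinase gene Lrrk2 and the salivary gland gene Smgc, WT went from -13.4 to 21.8 and from -11.1 to 11.6 points. Both KO replicates were positive at both ends there, at 14.0 and 2.99 points in replicate 1 and 11.9 and 6.47 points in replicate 2. Over 150 kb the loss there was 0.590 SD, under the threshold.

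The opposite sign was found at chr3:126325001-126625000 (loss 2.12 SD), with the arylsulfatase gene Arsj and Camk2d, a calmodulin-dependent kinase. The measured 200 kb begins at 126375001 and ends before the start of Camk2d. WT polarity rose over it from -23.0 to 15.7 points in replicate 1 and from -17.97 to 11.0 points in replicate 2. In KO it stayed negative, at -12.5 and -9.86 points in replicate 1 and -16.0 and -17.0 points in replicate 2. The KO profiles became positive farther downstream: at 200 kb from the centre they stood at 0.547 and 0.574 SD, beside 0.5996 and 0.872 SD in WT. With rises taken over 300 kb the loss here was 0.497 SD, under the threshold.

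Reversed slopes were seen at chr4:94800001-95050000, the second largest loss (2.51 SD). This span holds the angiopoietin receptor gene Tek, the sperm gene Eqtn, the histone H2A deubiquitinase gene Mysm1 and Jun, a subunit of the transcription factor AP-1. WT polarity rose from -5.70 to 14.3 points and from -1.20 to 16.5 points. It fell in KO, from 17.9 to -4.42 points in replicate 1 and from 15.0 to -4.84 points in replicate 2. Upstream of the span all 4 profiles climbed from negative values, as the plot of example loci shows. A smaller reversal lay at chr13:52400001-52625000 (loss 2.01 SD), with the immune receptor kinase gene Syk and the small GTPase gene Diras2: WT went from -8.33 to 7.19 and from -8.20 to 10.8 points, and KO from 3.47 to -18.8 and from 9.32 to -4.41 points. Over 150 kb the loss there was 1.18 SD.

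Gene-free spans were among the largest losses. At chr12:46975001-47325000 (loss 2.31 SD), which no protein-coding gene overlaps, WT rose from -20.5 to 15.6 and from -17.8 to 14.7 points. KO replicate 1 had 6.32 and 9.34 points at the ends and KO replicate 2 had 4.29 and -8.73 points, so the KO replicates differed at the downstream end. The loss there was 1.34 SD over 300 kb. The gene-free rise at chr16:82400001-82725000 (loss 2.20 SD) went from -25.1 to 20.9 and from -19.3 to 17.5 points in WT, and from -7.58 to 5.34 and from 2.38 to 3.75 points in KO; its loss was 0.952 SD over 150 kb and 1.38 SD over 300 kb. At chr6:102575001-102900000 (loss 1.96 SD), also gene-free, WT went from -16.7 to 20.9 and from -17.2 to 20.4 points and KO from -4.95 to 6.86 and from 4.55 to 13.4 points; the loss was 1.27 SD over 150 kb and 1.07 SD over 300 kb.

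**Figure D3:**
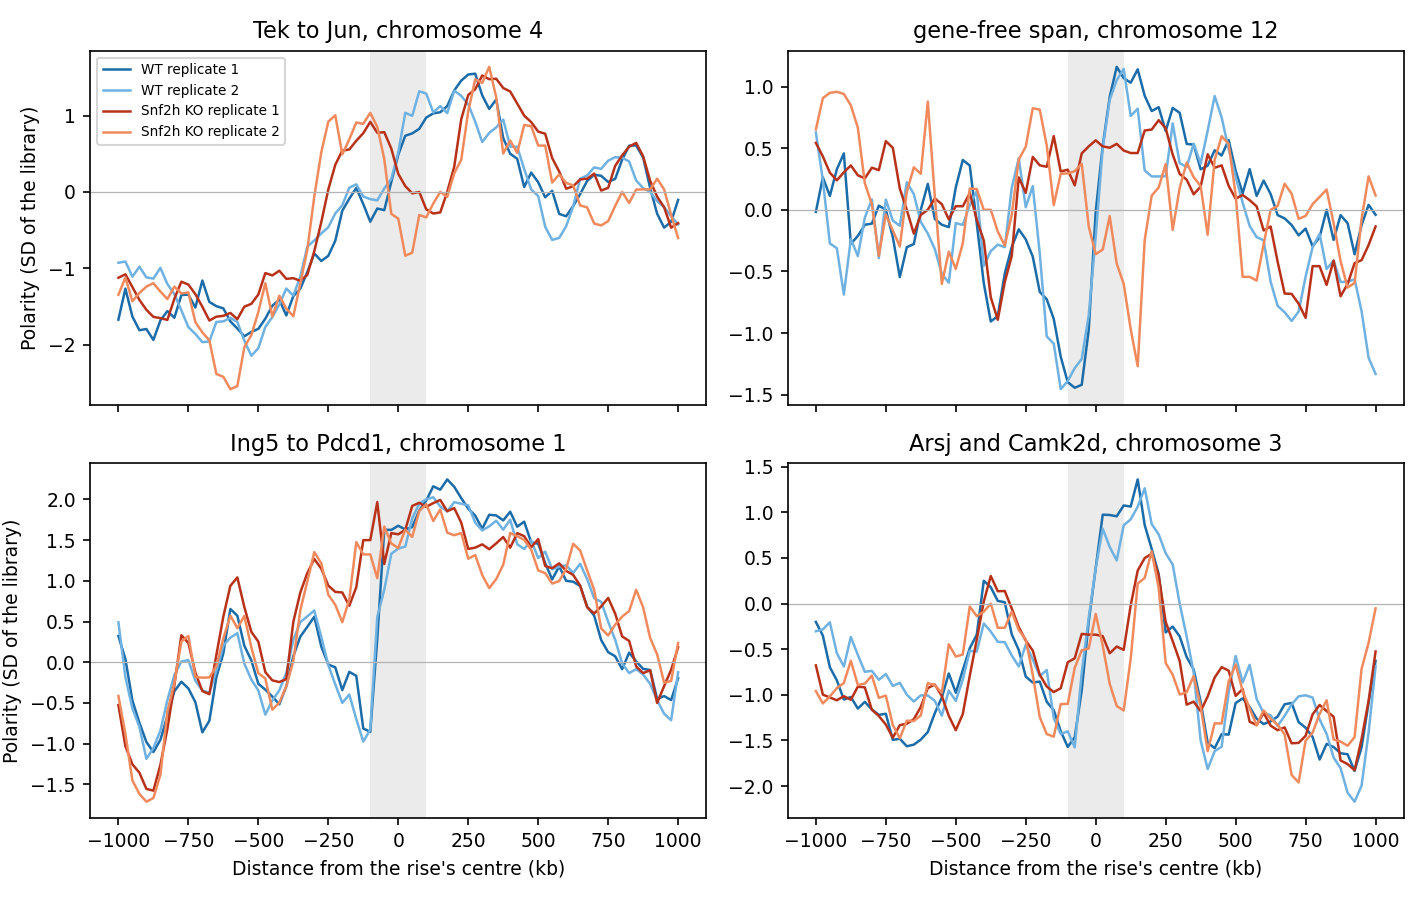
Polarity within 1000 kb of the centre of 4 lost rises among the 12 with the largest losses, in SD of each library (WT in blue, Snf2h KO in red); the grey band is the measured 200 kb. Across the band the KO lines slope down in the Tek to Jun region, stay positive in the Ing5 to Pdcd1 region and stay negative in the Arsj and Camk2d region. They part from each other at the gene-free span on chromosome 12. The band covers part of each region, and the starts of Ing5 and Camk2d lie outside it.

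Of the other regions among the 12, the one with the largest loss, 3.10 SD at chr8:19800001-20000000 with 9530057J20Rik, rested on 1 window, and 12 windows within 500 kb of it had no value in at least 1 library. Its polarity went from -30.0 to 6.28 and from -23.9 to 10.2 points in WT and from 8.33 to -3.68 and from 19.2 to -1.11 points in KO. A second lost rise of the same place, at chr8:19725001-19950000, had a loss of 1.96 SD and 10 such windows. At chr7:43050001-43400000 (loss 2.21 SD), with the zinc finger genes Zfp936 and Zfp715 and the sialic acid receptor gene Siglecf, the KO rises were -0.43 and -2.32 SD, against 1.79 and 1.82 SD in WT. The KO replicates thus differed there, and without KO replicate 1 the loss was 4.11 SD. The starts of Zfp715 and Siglecf lie past the measured 200 kb. Dtna, which encodes a dystrobrevin of the dystrophin complex, lay at chr18:23300001-23575000 (loss 2.00 SD), where WT went from -20.9 to 6.60 and from -23.7 to 2.24 points and KO from -19.1 to -25.4 and from -13.8 to -15.6 points. Over 300 kb the loss at Dtna was 0.516 SD, under the threshold.

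A window without a value lay within 500 kb of 20 lost rises (5.22%), 17 gained rises (6.16%) and 80 kept rises (3.61%), against 2.88% of all measured windows. Over the full-length autosomal windows, values were missing from 3313 in WT replicate 1, 3350 in WT replicate 2, 3582 in KO replicate 1 and 3695 in KO replicate 2. No lost rise had a value at the bound of the scale, and 28 (7.31%) lay within 5 Mb of a measured chromosome end, against 7.70% of all windows. Read counts were not used here, so the depth behind each value is unknown and its part in the losses was not tested.

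The longest lost rise, 400 kb, was chr11:47300001-47700000 within Sgcd, a sarcoglycan gene (9 windows, loss 1.93 SD); WT rose by 1.63 and 1.47 SD and KO fell by 0.47 and 0.50 SD. Next came chr1:161750001-162125000 (8 windows, loss 1.46 SD), with the dynamin gene Dnm3, Suco, Pigc of GPI anchor synthesis and Fasl, the death receptor ligand. There WT rose by 2.28 and 2.30 SD and KO by 0.82 and 0.57 SD, so the rise was reduced and not removed. Of the 5 regions with 7 windows each, 4 are among the losses already described, and the other, chr17:61850001-62200000, held no protein-coding gene and had a loss of 1.66 SD.

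Lost rises were sorted by their distance to the nearest kept rise, which had a median of 150 kb. Of them, 212 (55.4%) lay within 300 kb of one and 124 (32.4%) more than 500 kb away, called isolated here, with 47 in between. These shares were near those of all measured windows, of which 50.0% lay within 300 kb of a kept rise and 31.1% more than 500 kb away. The 69 regions that are themselves kept rises are among the 212. Beside a kept rise the median rise was 2.00 SD in WT and 0.780 SD in KO, and among the isolated ones 1.55 SD in WT and 0.141 SD in KO; this order follows in part from the definitions, since no rise of 1 SD or more in all 4 libraries can be isolated. Over all lost rises, 194 (50.7%) had a window rising by at least 1 SD in both KO libraries within 100 kb, the 69 that are themselves kept rises included, as did 34.1% of all measured windows.

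Some lost rises had a gained rise close by. A gained rise lay within 500 kb of 77 lost rises (20.1%), 303 kept rises (13.7%) and 10.6% of all measured windows. It lay within 500 kb of 55 of the 212 lost rises beside a kept rise (25.9%) and of 10 of the 124 isolated ones (8.07%), beside 13.3% and 5.40% of all windows as near to and as far from a kept rise.

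Gene content differed between lost rises near and far from kept ones, as it did over the genome. Over the 200 kb of the largest loss, 91 of the 383 lost rises (23.8%) overlapped no protein-coding gene, against 35 of 276 gained rises (12.7%), 148 of 2216 kept rises (6.68%) and 27.6% of all measured windows. The lost rises as a whole were therefore near the genome's average and well above the kept rises in this share. It was 37.9% for the isolated ones (47 regions) and 17.0% for those beside a kept rise (36 regions). Among all measured windows it was 46.4% in those as far from a kept rise and 14.9% in those as near, so the share in isolated lost rises was below that of all windows at their distance. The median number of protein-coding genes was 1 at lost rises, 2 at gained rises, 3 at kept rises and 1 over all windows. Genes covered a median of 15.8% of the span of isolated lost rises, 48.5% beside a kept rise and 39.0% over all lost rises. In all windows as far from and as near to a kept rise it was 5.0% and 53.5%, over all windows 40.5%, and at kept rises 53.0%. At kept rises the median WT rise was 2.00 SD, higher than the 1.75 SD of lost rises; the part of this difference in the gene counts was not tested.

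Gene-dense spans and very long genes were also counted. At least 5 protein-coding genes overlapped 56 lost rises (14.6%), 642 kept rises (29.0%) and 13.5% of all windows. A gene of 500 kb or more overlapped 36 lost rises (9.40%), 14 gained rises (5.07%), 133 kept rises (6.002%) and 9.43% of all windows; among isolated lost rises it was 17 (13.7%), and 14.5% of all windows as far from a kept rise. A miRNA gene lay in 18 lost rises (4.70%), 30 gained rises (10.9%), 256 kept rises (11.6%) and 6.81% of all windows.

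CpG-rich promoters, with a ratio of observed to expected CpG above 0.6, typically belong to broadly expressed and developmental genes. They made up 303 of 636 protein-coding promoters in lost rises (47.6%), 299 of 545 in gained rises (54.9%) and 4103 of 6601 in kept rises (62.2%), against 48.9% of the 20084 promoters of protein-coding genes in the table. In isolated lost rises they were 26 of 102 (25.5%) and beside a kept rise 243 of 452 (53.8%), where the promoters in all windows as far and as near had 37.6% (1573 of 4181) and 53.4%. Of the genes in the 12 largest losses, Mysm1, Syk and Dtymk, which lies in the region with Ing5, had such promoters too (25, 31 and 27 CpG at the richer start). Siglecf (2 CpG), Smgc (6 CpG) and Pdcd1 (5 CpG) had CpG-poor ones. The core of the CTCF motif, 8 fixed bases read on both strands with no overlap with another motif searched, was in 19 lost-rise promoters (2.99%), 11 gained-rise promoters (2.02%), 182 kept-rise promoters (2.76%) and 2.395% of the table. None of the listed promoters of the 12 largest losses held it, which says only that those letters are not in these 300 bases.

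**Figure D4:**
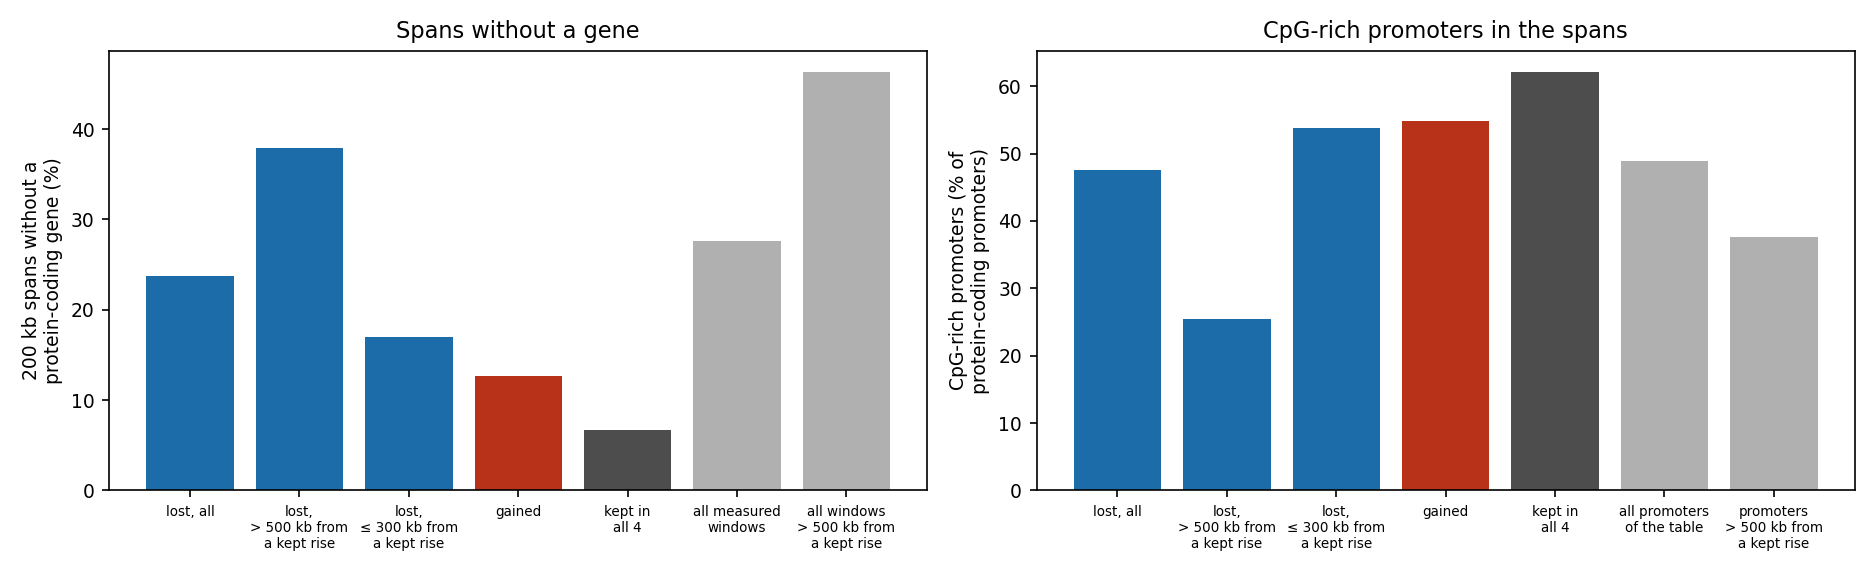
Share of 200 kb spans that overlap no protein-coding gene (left) and share of protein-coding promoters that are CpG-rich (right), both in percent, for all lost rises, lost rises more than 500 kb and at most 300 kb from a kept rise, gained rises, kept rises, all windows or promoters, and those more than 500 kb from a kept rise. Isolated lost rises have 37.9% without a gene and 25.5% CpG-rich promoters, beside 46.4% and 37.6% of all windows and promoters as far from a kept rise, and 6.68% and 62.2% at kept rises.

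No pluripotency factor gene of the 22 listed, none of the 11 autosomal genes of ISWI complexes and none of the 7 for CTCF and cohesin lay in a lost rise, while 19, 6 and 6 of them lay in kept rises and 0, 1 and 1 in gained rises. Over all 20661 autosomal protein-coding genes, 858 (4.15%) overlapped a lost rise, 719 (3.48%) a gained rise and 9522 (46.1%) a kept rise, so that lists of this size would hold few or no genes in lost rises at the share of all genes. No Hox gene (0 of 39) and no protocadherin gene (0 of 67) lay in a lost rise, and none of either in a gained rise. Kept rises held 38 of the Hox genes (97.4%) but only 4 of the protocadherin genes (5.97%). Neighbouring genes of such families are not separate observations.

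Large neural and fragile-site genes were represented by parts of their length. Of 14 genes at common fragile sites, where chromosomes tend to break under replication stress, 4 overlapped a lost rise (Dlg2, Lrp1b, Magi2 and Nbea), and of 19 long neural genes, 5 did (Cadm2, Cdh13, Cntnap2, Ctnnd2 and Grik2). The shares, 28.6% and 26.3%, stand beside 4.15% of all protein-coding genes and 16.7% of those of 500 kb or more (36 of 215). Long genes can hold several rises: 10 and 12 of the listed genes overlapped kept rises (71.4% and 63.2%), against 57.2% of genes of 500 kb or more. Gained rises overlapped 1 and 1 of them (7.14% and 5.26%), against 6.98% of genes of 500 kb or more. The largest of these losses was 1.34 SD at chr3:55475001-55700000, which touches Nbea, a scaffold protein gene, and Dclk1. WT rose there by 1.49 and 1.47 SD and KO by 0.12 and 0.13 SD. In Grik2, a glutamate receptor gene, at chr10:49375001-49575000, WT rose by 1.05 and 1.52 SD and KO fell by 0.16 and 0.19 SD. In Cntnap2, a neurexin-family gene, at chr6:46025001-46250000, WT rose by 1.12 and 1.01 SD and KO fell by 0.15 and 0.27 SD. Ctnnd2, a delta-catenin gene, had a reduced rise at chr15:29975001-30200000, at 2.86 and 3.11 SD in WT and 1.399 and 1.74 SD in KO. The losses at Lrp1b, Magi2, Cdh13, Cadm2 and Dlg2 were between 0.762 and 0.872 SD, close to the threshold.

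Clustered gene families lay on either side of the 4.15% of all protein-coding genes. Olfactory receptor genes in lost rises numbered 30 of 1104 (2.72%) in 9 regions, vomeronasal receptor genes 15 of 354 (4.24%) in 5 regions and zinc finger genes named Zfp 30 of 391 (7.67%) in 16 regions. Of the zinc finger genes 19 (4.86%) overlapped gained rises and 175 (44.8%) kept rises. Neighbouring family members in a region share its value and are not separate observations. Of 112 keratin and keratin-associated genes, 6 (5.36%) were in lost rises, all of them keratin-associated and in chr16:88675001-88875000, with a loss of 1.44 SD. Among killer lectin receptor genes, 4 of 29 (13.8%) were in lost rises, and 3 of them, Klrb1, Klrb1b and Klrb1c, shared chr6:128675001-128950000 (loss 1.61 SD). There WT rose from -5.50 to 24.5 and from -0.267 to 21.4 points, and KO was positive at both ends, at 19.7 and 21.3 points in replicate 1 and 11.2 and 11.7 points in replicate 2. Of 20 imprinted genes, Dlk1 and Meg3 shared a lost rise with a loss of 0.766 SD, close to the threshold, at chr12:109400001-109600000.

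Lost rises were spread over every autosome. There were 16.3 per 100 Mb in all, from 9.71 on chromosome 5 (14 regions) to 23.7 on chromosome 7 (31 regions), followed by 21.4 on chromosome 10, 21.3 on chromosome 6 and 21.2 on chromosome 3. The share of WT rise windows that was lost ran from 2.84% on chromosome 5 to 8.10% on chromosome 6. Gained rises outnumbered lost ones on chromosome 5 (23 against 14) and chromosome 4 (19 against 17) and equalled them on chromosome 11 (13 each).

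**Figure D5:**
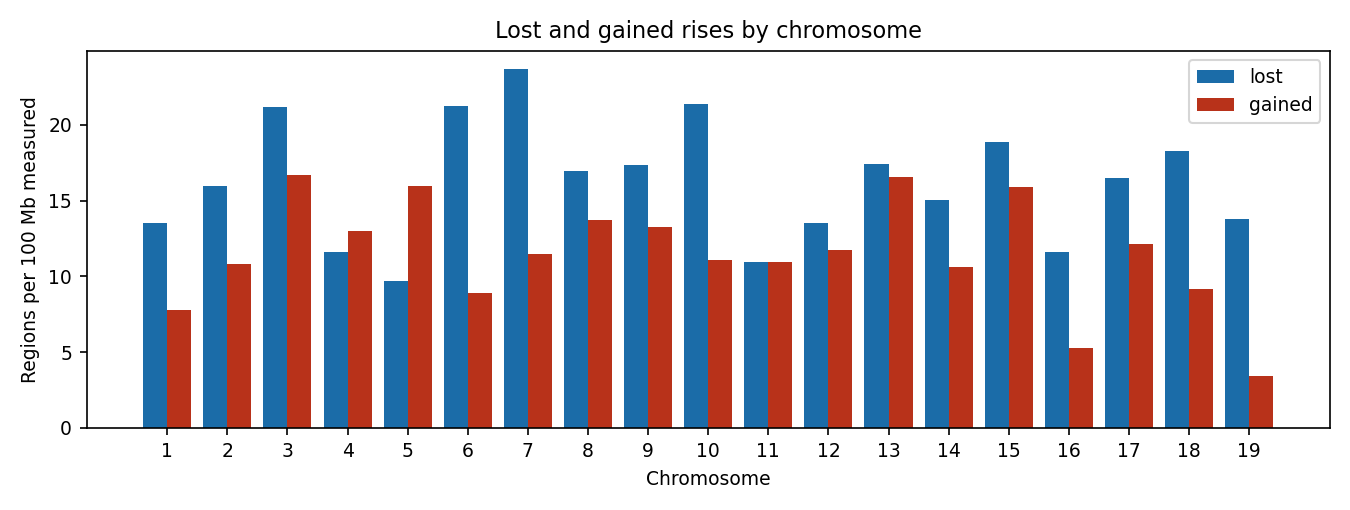
Lost (blue) and gained (red) rises per 100 Mb of measured windows on each autosome. Lost rises range from 9.71 on chromosome 5 to 23.7 on chromosome 7, and are outnumbered by gained rises on chromosomes 4 and 5.

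Grouping along chromosomes was slight. In bins of 10 Mb the number of lost rises had a mean of 1.68 and a ratio of variance to mean of 1.09, beside 1.07 for gained and 0.801 for kept rises; 45 of 207 bins had none and the fullest had 6. Another lost rise lay within 2 Mb of 221 (57.7%), and a lost rise lay within 2 Mb of 44.9% of all measured windows. Regions whose measured spans overlap count as neighbours here, and joining them left 354 regions, of which 49.4% had another within 2 Mb. On the deposited scale, with 164 regions, the share was 31.7%. Chains of at least 3 regions, each within 2 Mb of the next, numbered 23 and held 79 regions. The 276 gained rises formed 9 such chains, which held 30 regions. Regions whose spans overlap count as separate members of a chain.

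The chain with the most members had 6 lost rises over 5.0 Mb at chr3:123100001-128100000, with no gained rise and 1 kept rise in it. Its first pair of overlapping regions holds Synpo2, an actin-binding protein gene, Sec24d of the COPII coat and Mettl14, a subunit of the RNA m6A methyltransferase, with losses of 1.18 and 0.935 SD. A rise with 1700003H04Rik followed (loss 1.42 SD; mean rise 2.24 SD in WT and 0.353 SD in KO), then the Arsj and Camk2d rise, then an overlapping pair with the innate immune genes Alpk1 and Tifa, Ap1ar and Fam241a (losses 0.781 and 1.23 SD). Of the 6, the mean KO rise reached 0.5 SD in 1, the region with Alpk1.

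The chain at chr6:78125001-80725000 had 4 lost rises and neither a kept nor a gained rise. The first and second, with losses of 1.39 and 1.52 SD, overlapped no protein-coding gene, and the others, with 1.45 and 0.758 SD, lay on Lrrtm4, a synaptic adhesion gene. The nearest window that rose in both KO libraries was 3650 kb from the first of them and 1250 kb from the last. At the second, the mean rise was 1.89 SD in WT and -0.558 SD in KO.

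Other chains mixed removed and reduced rises. In a chain on chromosome 19, the rise near Gldc, the glycine decarboxylase, was reduced from a mean of 3.00 to 1.39 SD. At the protein kinase gene Prkg1 and at the sphingomyelin synthase gene Sgms1, in the same chain, it fell below 0.5 SD in KO, from 2.27 to 0.179 SD and from 1.31 to 0.323 SD. At chr13:50425001-52625000, ending at Syk, the rise at Spin1, a histone reader, went from 2.29 to 0.950 SD, the one at Sema4d, Secisbp2 and Gadd45g from 1.47 to 0.317 SD, and the one at Fbxw17 and Nutm2 from 1.31 to 0.0311 SD. At chr10:125000001-126100000, overlapping regions at the transporter gene Slc16a7 went from 1.37 to 0.0674 SD and from 1.83 to 0.415 SD, and those at Lrig3 from 2.78 to 1.44 SD and from 3.32 to 1.91 SD. The chain at chr10:49375001-56650000 had 5 regions, starting at Grik2, with losses between 0.890 and 1.21 SD. The chain around Slc39a10, chr1:43750001-48775000, had 4, among them one at the collagen genes Col5a2 and Col3a1 (1.80 to 0.00200 SD). The 3 regions at chr9:38700001-39050000 overlap each other in a cluster of olfactory receptor genes and stand for a single place.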

How the data were processed

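Reads were aligned by the authors to GRCm38 plus an rRNA sequence and deduplicated, per the file headers; the submitters' processing notes name Trim Galore 0.6.5 and Bowtie2 2.4.1. The deposited values are a signed score per window of 100 kb, read here as strand imbalance in points from their range. Their program, sign and minimum of reads are not given in the sources used here. Of 109033 windows, 98444 were autosomal and of full length, 94694 had a value in all 4 libraries, and 94040 also had one 200 kb downstream.

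No test between genotypes was made, since the rule uses that contrast. The members and gene lists were chosen with earlier results of these data known. Regions named were the 12 with the largest loss, the 5 longest, members of chains, and those overlapping a listed gene, with up to 6 genes each; of the chains, those described were chosen after their values were seen. Regions of 7 windows tie for the fifth longest. The list of histone genes matched no name and is not used. Genes (GRCm38.p6) and promoters are from RefSeq tables; 16456 of 20661 autosomal protein-coding genes had a promoter entry, none of them on chromosome 18, so promoter shares leave out the 16 lost regions there. WT replicate 2 carries different index sequences in its label and its column name. Python 3.11.15, numpy 2.4.6, pandas 2.3.3 and matplotlib 3.10.9 were used. Alternatives were other scales, spans, thresholds, smoothing, merging and gene definitions, and omission of each library.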

Additional observations from a re-analysis of the deposited data

Results flagged for a closer look

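The X chromosome was outside the rule. With the autosomal SD of each library, 63 of its 5761 measured windows (1.09%) met the thresholds of a lost rise, in 29 regions (20.1 per 100 Mb), and 64 (1.11%) met those of a gained rise, in 33 regions. The lost windows were 8.47% of the 744 that rose in both WT libraries there. The largest loss on this chromosome, 2.66 SD, was at chrX:21975001-22325000, where no protein-coding gene lies and the rise was 2.36 and 2.56 SD in the WT replicates and -0.30 and -1.39 SD in the KO replicates. Frmpd4, a synaptic scaffold gene, held the next, of 2.00 SD.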

How the results depend on the processing

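Comparing same-numbered WT and KO replicates in place of the extremes (a replicate block, with no test) gave 1080 windows (7.54% of WT rises) in 494 regions; this looser rule takes in the 808 by construction. On the deposited scale there were 293 lost windows in 164 regions, all among the 808, and 1181 gained windows in 574 regions; the lost share of WT rises was 2.34%, the share with a neighbour within 2 Mb 31.7%, without a protein-coding gene 28.7%, and flat or falling in KO 76.8%. Merging by overlapping spans gave 49.4% with a neighbour; neighbours within 1 or 5 Mb gave 34.2% and 80.7%. The share of WT rises lost was 5.04% over 150 kb and 5.02% with a running mean of 3 windows, which left 182 gained regions. A minimum loss of 0.5 SD gave 1570 windows, 743 regions, 10.95%, 69.3% with a neighbour, and 1167 gained windows in 563 regions; 1 SD gave 369, 204 and 2.58%, with 245 gained in 132. A minimum rise of 1.5 SD gave 509 windows in 248 regions, 6.19%, and 350 gained windows. Widening each span by 100 kb on either side left 16.45% without a protein-coding gene. With flat set below 0.25 SD, 40.7% were flat or falling.

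Leaving out each library gave 1323 to 2142 lost windows in 592 to 1005 regions, 947 to 2431 gained windows in 464 to 1290 regions, 9.23% to 14.95% of WT rises lost, 66.1% to 80.5% with a neighbour, 17.8% to 22.9% without a protein-coding gene and 50.7% to 56.4% flat or falling. Losses at the 12 regions ranged from 0.497 to 3.01 SD over other spans, the deposited scale and a running mean. The region on chromosome 8 had no value over 300 kb or with the running mean. With a library left out they were 1.96 to 4.11 SD, which by construction cannot be lower. Windows chosen over 150 kb and 300 kb included 42.0% and 38.1% of the 808, so single positions depend on the span. With 2 libraries per genotype and unknown depth, the precision of a single loss is not known.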
